A study of Mus musculus with 15 samples.

Results

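A set of 9 genes of B cells and of MHC class II antigen presentation was followed through 15 RNAseq libraries of sorted iNKT cells. They are Cd79a, Cd79b, Ms4a1, Cd22 and Ighm, which belong to B cells, and Cd74, H2-Aa, H2-Ab1 and H2-Eb1, which belong to cells that present antigen on MHC class II. The rule that names these 9 of the 48795 genes in each table is a list and uses no measured value, though the list was drawn up with earlier results of these data known, as genes whose RNA could come from other cells in a sort of iNKT cells. All 9 were found by gene identifier, and 8 of the 9 were among the 13600 genes that passed the filter on low counts, since Cd79a did not.

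The cells came from WT C57BL/6 mice aged 6 weeks, with no allele or treatment set between the groups, which are thymus, spleen, mesenteric lymph node (mLN) and inguinal lymph node (iLN). iNKT cells are T cells whose invariant receptor sees lipid on CD1d, and they were sorted by staining for TCRβ and with CD1d tetramer carrying PBS57, in a gate free of B220, CD11b, CD11c and CD8. B220 is carried by B cells, CD11b by myeloid cells and CD11c by dendritic cells, so that the gate was set against the cells that carry these 9 genes. Thymus, spleen and mLN each had 4 libraries and iLN had 3, numbered 2 to 4, with no library of iLN number 1 used here. Replicates 1 and 2 carry the batch label Second (7 libraries) and replicates 3 and 4 the label First (8 libraries). Spleen and thymus were mashed through a strainer, whereas LNs were digested with enzymes before sorting. The labels do not say whether a replicate was 1 mouse or a pool, so that p-values here measure the spread between these libraries.

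As background, Cd79a and Cd79b are the signalling chains of the B cell receptor, and the receptor itself is made of immunoglobulin heavy chain, such as the µ chain of Ighm, and light chain. MHC class II molecules are pairs of an α and a β chain that reach the endosome bound to the invariant chain, which Cd74 encodes, and B cells, dendritic cells and macrophages hold them at high level. Mouse T cells are known to lack surface MHC class II, and transcripts of the µ constant region without a rearranged V segment are known from T cells as well as from B cells.

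Library totals ran from 1152702 counts (thymus replicate 2) to 8670570 (spleen replicate 1), and the next lowest held 4080550 counts. T cell genes were high in every library. Cd3e, a chain of the TCR complex, was between 862 and 1510 CPM (counts scaled to library size after TMM normalization), and the 13 genes of iNKT and T cell identity summed to between 3420 CPM (spleen replicate 1) and 5570 CPM. Rag1, a recombinase gene of developing lymphocytes, was at 5.51 to 22.1 CPM in thymus and at most 0.15 CPM elsewhere.

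Of the B cell genes, 4 of 5 were low in most libraries and high in a single one. Cd79a (ENSMUSG00000003379, chr7:24897381-24902197 in GRCm38, plus strand) had 203 counts in spleen replicate 1, and 0, 1 and 1 in spleen replicates 2 to 4. Its counts were 0, 0, 3 and 1 in thymus, 0, 2, 9 and 2 in mLN, and 0, 1 and 0 in iLN. Spleen replicate 1 (20.0 CPM) thus held 82.4% of the CPM of Cd79a summed over the 15 libraries, and 6 libraries had no count. A library with no count allows a level of up to 3 counts, which is 2.21 CPM in the shallowest library. Since these are bulk libraries, fewer cells of a type and less RNA per cell cannot be told apart.

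Cd79b (ENSMUSG00000040592, chr11:106311341-106314762, minus strand), the partner chain of Cd79a, had 109, 11, 0 and 1 counts in spleen replicates 1 to 4. It had 0, 0, 1 and 0 counts in thymus, 5, 2, 3 and 1 in mLN, and 13, 0 and 16 in iLN. Spleen replicate 1 was again the highest (10.8 CPM), but iLN replicates 4 (2.74 CPM) and 2 (2.33 CPM) came next, and in both of these Cd79a was at 0. Cd79b summed to 121 counts in spleen and 1 in thymus, a ratio per depth of 93.3 with an exact 95% interval of 16.4 to 3720, and the ratio of iLN (29 counts) to thymus was 38.2 (6.34 to 1560). These intervals cover counting error only and not the spread between libraries.

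Ms4a1 (ENSMUSG00000024673, chr19:11249675-11266241, minus strand), which encodes CD20, a membrane protein of mature B cells, was at 31.2, 3.31, 2.24 and 3.25 CPM in spleen replicates 1 to 4. It was at 1.73, 0.735, 0.551 and 2.85 CPM in thymus, 2.59, 2.90, 2.29 and 0.963 CPM in mLN, and 4.31, 2.17 and 3.25 CPM in iLN. Outside spleen replicate 1 the tissues overlapped. The expected counts of Ms4a1 were fractional in all 15 libraries, so that part of its reads was shared with other loci, and its low values are uncertain for this reason. It overlaps 4930526L06Rik, which had 4 counts in all.

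Cd22 (ENSMUSG00000030577, chr7:30865402-30880342, minus strand), an inhibitory receptor of B cells, was at 30.6, 7.36, 2.74 and 0.814 CPM in spleen replicates 1 to 4. It was at 1.97, 2.94, 2.2 and 1.33 CPM in thymus, 0.259, 0, 1.46 and 0.578 CPM in mLN, and 0.359, 4.61 and 0.513 CPM in iLN. It overlaps Gm29439, which had 8 counts in all. Unlike Cd79a it had counts in every thymus library, and the mLN mean was the lowest of the 4 tissues (0.573 ± 0.634 CPM, SD, n = 4). Summed over Cd79a, Cd79b, Ms4a1 and Cd22, spleen replicate 1 held 938 counts (92.6 CPM), the next library, spleen replicate 2, held 82 counts (12.3 CPM), and the 13 others lay between 2.12 and 7.04 CPM.

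**Figure D1:**
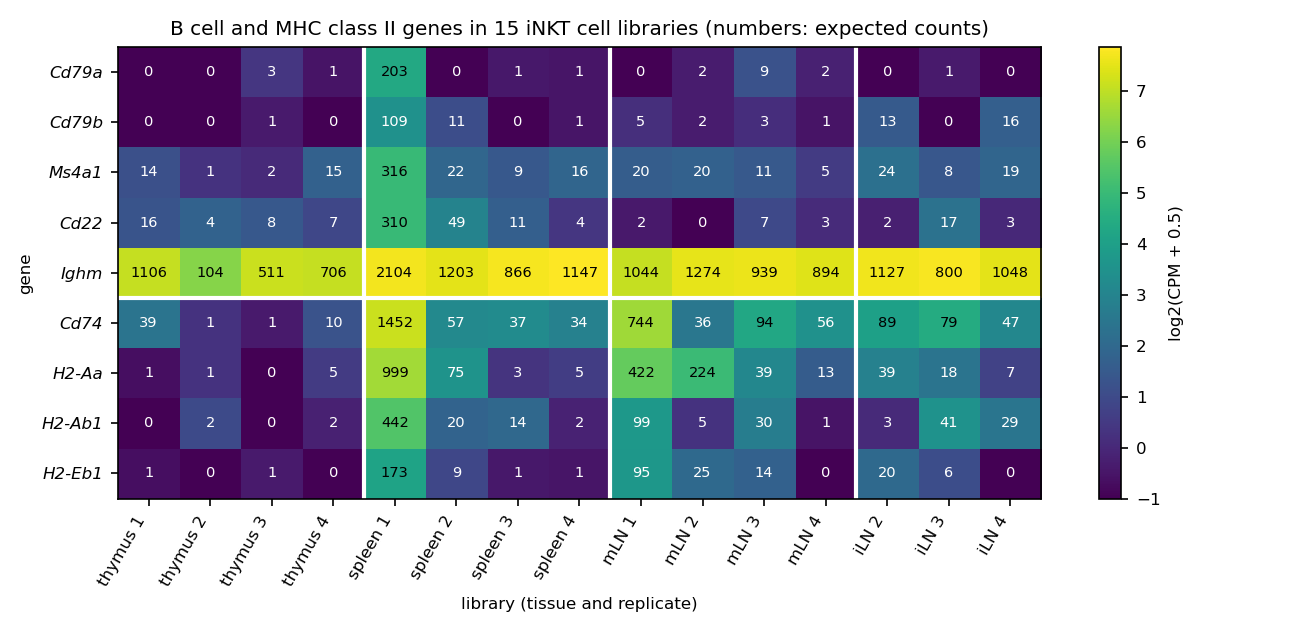
Level of each of the 9 genes (vertical axis) in each of the 15 libraries (horizontal axis, grouped by tissue), with colour for log2(CPM + 0.5) and the expected count printed in each cell. Spleen replicate 1 stands out in every gene but Ighm, mLN replicate 1 is the second highest in the 4 MHC class II genes with 0 counts of Cd79a, and Ighm is high throughout, with 104 to 2104 counts.

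Ighm (ENSMUSG00000076617, chr12:113418558-113422730, minus strand) did not follow the other B cell genes. It was at 136, 76.4, 141 and 134 CPM in thymus replicates 1 to 4, and at 208, 181, 216 and 233 CPM in spleen. In mLN it was at 135, 185, 195 and 172 CPM, and in iLN replicates 2 to 4 at 202, 217 and 179 CPM. Every library thus held Ighm at 76.4 CPM or more, the library with the most Cd79a was not the highest, and all thymus libraries lay below all spleen and iLN libraries. The means were 122 ± 30.4 CPM in thymus (SD, n = 4), 172 ± 26.2 CPM in mLN (n = 4), 199 ± 18.9 CPM in iLN (n = 3) and 209 ± 21.9 CPM in spleen (n = 4).

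On the scale that corrects for length (TPM), Ighm reached 4.91% to 21.6% of the level of Cd3e in the same library. Cd79a reached 2.29% of it in spleen replicate 1, and at most 0.145% in the 14 others. By TPM Ighm was at 236 and Cd74 at 218 in spleen replicate 1, whereas in thymus replicate 3 Ighm was at 102 and Cd74 at 0.27.

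The counts of Ighm came with few counts of V segments. Ighv segments summed to 69, 4, 3 and 12 counts in thymus, 162, 38, 9 and 4 in spleen, 26, 20, 12 and 5 in mLN, and 49, 0 and 6 in iLN. Their share of the counts of Ighv segments and Ighm together was 7.15% (95% Wilson interval 6.16% to 8.28%) in spleen replicate 1, the highest, and 1.55% (1% to 2.38%) in mLN replicate 2, the lowest of batch Second. In the 8 libraries of batch First it was between 0% (0 of 800, upper bound 0.478%) and 1.67% (0.959% to 2.90%), so that the batches overlapped in this share. A V segment is much shorter than the constant region and its reads can be shared among like segments, so that these shares compare libraries and not the numbers of molecules.

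**Figure D2:**
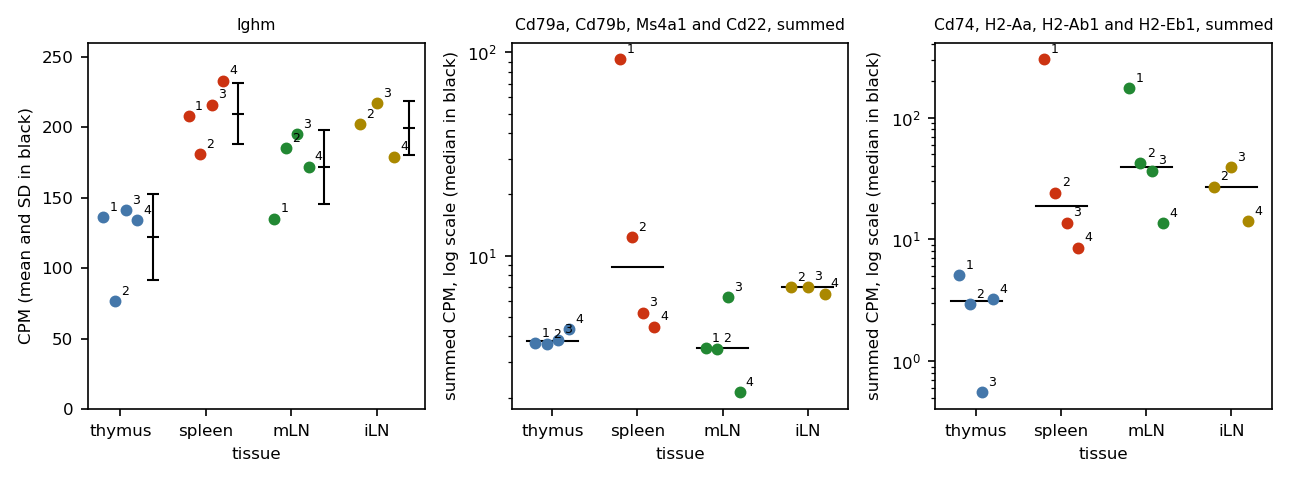
CPM by tissue for Ighm (left, linear axis, mean and SD in black), for Cd79a, Cd79b, Ms4a1 and Cd22 summed (centre, log axis, median in black) and for the 4 MHC class II genes summed (right, log axis, median in black), each point a library numbered by replicate. Ighm runs from 76.4 to 233 CPM with thymus lowest, the summed B cell genes are at 92.6 CPM in spleen replicate 1 and at most 12.3 CPM elsewhere, and the summed MHC class II genes are lowest in thymus (0.551 to 5.06 CPM).

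Light chain and IgA separated the batches. Igkc, the κ light chain constant gene, was at 16.9 to 81.5 CPM in the 7 libraries of batch Second and at 0 to 2.98 CPM in the 8 libraries of batch First. Igha, the constant gene of IgA, was at 19.2 to 44.1 CPM in batch Second and at 0 to 1.04 CPM in batch First, and the ranges of both genes did not overlap. Jchain, which joins IgA and IgM units, was at 1.47 to 5.80 CPM against 0 to 0.684 CPM.

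This split was present in each tissue. Igkc was at 58.4 and 16.9 CPM in thymus replicates 1 and 2 and at 0 and 0.379 CPM in replicates 3 and 4, and Igha at 44.1 and 22.8 against 0.275 and 0 CPM. In thymus replicate 1, with 473 counts of Igkc, Cd79a and Cd79b were at 0. Ighm itself had a median of 181 CPM in batch Second and 187 CPM in batch First, so that Igkc ran from 13.4 to 42.8 counts per 100 counts of Ighm in batch Second and from 0 to 1.38 in batch First. Since all replicates numbered 1 and 2 are of batch Second, the batch cannot be told apart from other things these replicates share, such as mice, sort days or sequencing runs.

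**Figure D3:**
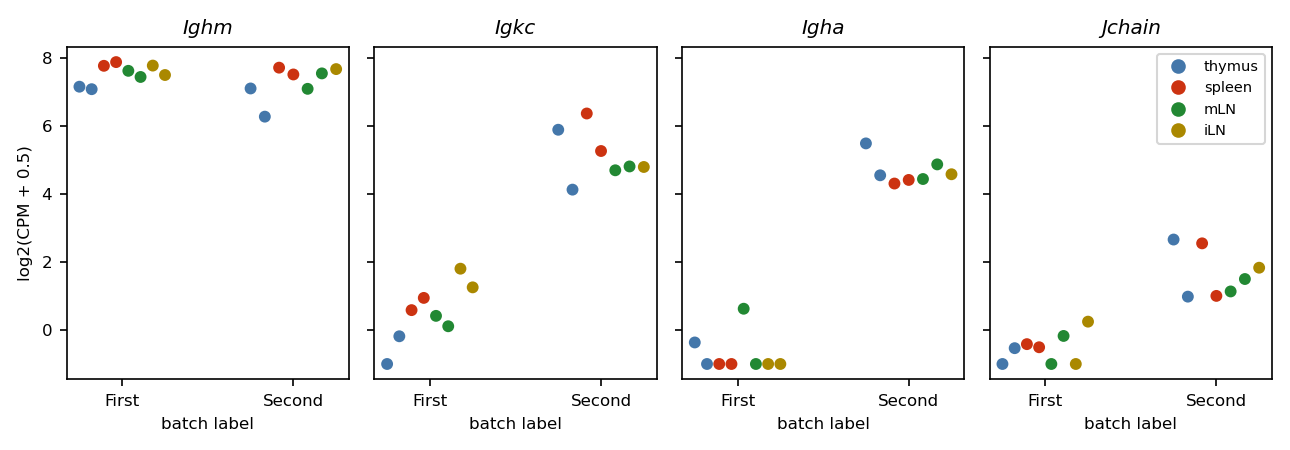
log2(CPM + 0.5) of Ighm, Igkc, Igha and Jchain (panels) in the libraries of batch First (8) and batch Second (7), each point a library coloured by tissue. Igkc and Igha do not overlap between the batches (0 to 2.98 against 16.9 to 81.5 CPM for Igkc), whereas Ighm does (134 to 233 against 76.4 to 208 CPM).

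The MHC class II genes were low in thymus and widely spread in the other tissues. Cd74 (ENSMUSG00000024610), the invariant chain, was at 143, 8.57, 9.22 and 6.92 CPM in spleen replicates 1 to 4, and at 96.5, 5.22, 19.6 and 10.8 CPM in mLN. In iLN it was at 16.0, 21.4 and 8.04 CPM, and in thymus at 4.81, 0.735, 0.275 and 1.90 CPM. Every library of spleen, mLN and iLN lay above every thymus library. By mean the order was spleen (42 ± 67.6 CPM, SD, n = 4), mLN (33 ± 42.7, n = 4), iLN (15.1 ± 6.72, n = 3) and thymus (1.93 ± 2.04, n = 4), and the first 2 means rest on 1 library each.

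H2-Aa (ENSMUSG00000036594, chr17:34282744-34287823, minus strand), the α chain of the class II molecule I-A, was at 98.6, 11.3, 0.748 and 1.02 CPM in spleen replicates 1 to 4. In mLN it was at 54.7, 32.5, 8.11 and 2.50 CPM, and in iLN at 7, 4.88 and 1.2 CPM, whereas thymus was at 0.123, 0.735, 0 and 0.949 CPM. All mLN and iLN libraries lay above all thymus libraries, whereas spleen replicate 3 lay within the range of thymus. mLN replicate 2 was high in H2-Aa (224 counts) but not in Cd74 (36 counts) or H2-Ab1 (5 counts).

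H2-Ab1 (ENSMUSG00000073421, chr17:34257689-34269419, plus strand), the β chain that pairs with H2-Aa, was at 43.6, 3.01, 3.49 and 0.407 CPM in spleen, 12.8, 0.725, 6.24 and 0.193 CPM in mLN, 0.538, 11.1 and 4.96 CPM in iLN, and 0, 1.47, 0 and 0.379 CPM in thymus. H2-Eb1 (ENSMUSG00000060586, chr17:34305867-34316674, plus strand), the β chain of I-E, was at 17.1, 1.35, 0.249 and 0.203 CPM in spleen, 12.3, 3.63, 2.91 and 0 CPM in mLN, 3.59, 1.63 and 0 CPM in iLN, and 0.123, 0, 0.275 and 0 CPM in thymus. Both genes overlapped between all pairs of tissues. C57BL/6 mice are known to make no I-E α chain, so that H2-Eb1 is read here as a transcript only. H2-Eb1 had 2 counts in thymus in all, against 184 in spleen (ratio per depth 70.9, exact 95% interval 19.4 to 590), 134 in mLN (53.5, 14.5 to 446) and 26 in iLN (17.1, 4.29 to 149), again for counting error only.

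The promoters of H2-Aa and H2-Eb1, whose levels were the most alike of the class II pairs, are shown for their short motifs, since the class II genes are known to be driven together through X and Y boxes upstream of their start. Each is the 250 bases before the RefSeq start in build GRCm38.p6, read 5′ to 3′ on the strand of the gene, with matches on either strand to the Y box core CCAAT, and to AGCAAC or CAGATG, 2 stretches of the X box, in capitals.
H2-Aa, chr17:34287824-34288073, minus strand: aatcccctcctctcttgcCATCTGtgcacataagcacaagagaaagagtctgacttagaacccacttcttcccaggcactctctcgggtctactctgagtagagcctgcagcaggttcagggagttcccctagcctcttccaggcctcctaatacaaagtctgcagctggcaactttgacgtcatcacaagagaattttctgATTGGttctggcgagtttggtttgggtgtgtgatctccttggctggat
H2-Eb1, chr17:34305617-34305866, plus strand: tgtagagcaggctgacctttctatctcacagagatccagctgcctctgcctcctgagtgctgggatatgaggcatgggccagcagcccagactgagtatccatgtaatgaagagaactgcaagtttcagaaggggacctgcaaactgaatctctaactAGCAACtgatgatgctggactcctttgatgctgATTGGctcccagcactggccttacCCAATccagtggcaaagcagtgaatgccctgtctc

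An inverted CCAAT lay 48 to 44 bases before the start in H2-Aa and 59 to 55 bases before it in H2-Eb1. H2-Eb1 held AGCAAC at 92 to 87 bases and a second CCAAT at 35 to 31 bases before the start, and H2-Aa held an inverted CAGATG at 232 to 227 bases. H2-Aa held no exact AGCAAC, but ggcaac, a single letter off, lay between its inverted CAGATG and its inverted CCAAT and is not marked. Which stretch of H2-Aa is its X box was not tested, so that the marks do not show that the promoters differ there. These letters are common: of 27025 promoter windows of this length, 34.5% held CCAAT, 12.3% AGCAAC and 14.5% CAGATG on either strand, so that a match describes the sequence and is not a site. H2-Ab1 had no promoter entry, and no window of Cd74 is shown. Whether the motifs bear on the levels of the class II genes was not tested. Of the B cell genes, the table holds Cd79a and Cd22. The window of Cd22 held the palindromic motif of EBF1 49 to 40 bases before the start, as did 0.788% of all windows, and that of Cd79a held GAGGAA, the core of PU.1 motifs, at 140 to 135 bases (23.1% of windows), while neither held the octamer ATGCAAAT (1.61% of windows).

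Spleen replicate 1 and mLN replicate 1 both had many counts of MHC class II genes, but differed in the B cell genes. The 4 class II genes summed to 3066 counts (303 CPM) in spleen replicate 1 and 1360 counts (176 CPM) in mLN replicate 1, and to at most 42.1 CPM in the 13 other libraries. The 4 B cell genes without Ighm summed to 938 counts in spleen replicate 1 and 27 counts in mLN replicate 1. The class II sum was therefore 3.27 times the B cell sum in spleen replicate 1 and 50.4 times it in mLN replicate 1. Across the other libraries this ratio ran from 1.91 to 2.62 in spleen, 5.90 to 12.1 in mLN, 2.18 to 5.54 in iLN and 0.143 to 1.37 in thymus. The lowest of mLN (replicate 3, 177 against 30 counts) lay close to the highest of iLN (replicate 3, 144 against 26 counts). These B cell sums are small and the ratio was given no interval, so that a difference between the tissues was not tested.

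**Figure D4:**
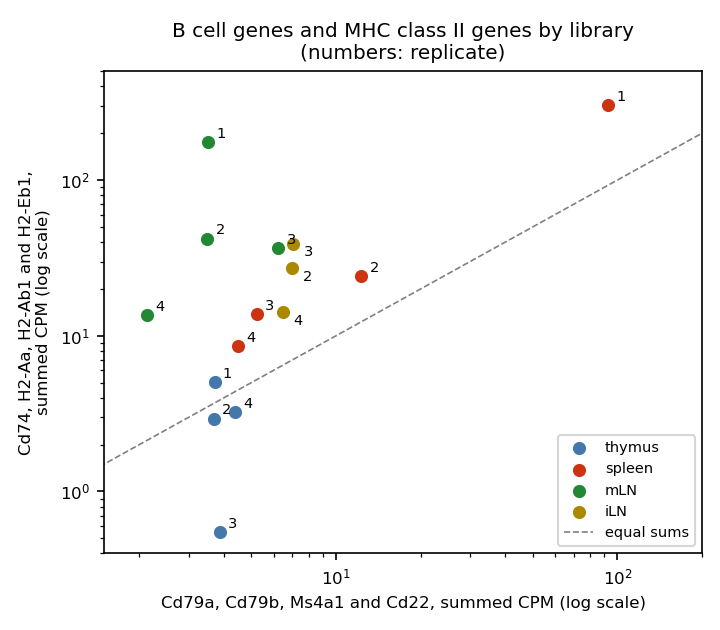
Summed CPM of Cd79a, Cd79b, Ms4a1 and Cd22 (horizontal, log scale) against summed CPM of Cd74, H2-Aa, H2-Ab1 and H2-Eb1 (vertical, log scale), each point a library coloured by tissue and numbered by replicate, with a dashed line where the sums are equal. Spleen replicate 1 lies at 92.6 and 303 CPM, mLN replicate 1 at 3.5 and 176 CPM, and 3 of the 4 thymus libraries lie under the line.

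On log2 CPM over the 15 libraries, Pearson's r within the class II set ran from 0.654 (H2-Ab1 and H2-Eb1) to 0.906 (H2-Aa and H2-Eb1). Among the 4 B cell genes tested it ran from 0.0503 (Ighm and Cd22) to 0.774 (Ms4a1 and Cd79b), and Cd74 and Ms4a1, of different sets, had 0.712. Over the 13 libraries without spleen replicate 1 and mLN replicate 1, the class II pairs ran from 0.324 to 0.811 (H2-Aa and H2-Eb1 again the highest) and the B cell pairs from -0.261 (Cd22 and Ms4a1) to 0.627 (Ighm and Ms4a1), while Cd74 and Ighm had 0.762. The sets were thus not separate in these values. The points share library, depth and tissue, and many of the counts are small, so that these values are a description.

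By edgeR's quasi-likelihood test with Benjamini-Hochberg adjustment, none of the 8 genes tested was called between any pair of tissues or over the 4 tissues together (adjusted p under 0.01 and fold change over 1.5). Of all 13600 genes, the test called 1.32% for thymus against spleen, 0.654% for mLN against spleen, 1.55% for iLN against spleen, 1.6% for mLN against thymus, 1.5% for iLN against thymus, 0.471% for iLN against mLN and 3.38% over the 4 tissues. An unadjusted p under 0.05 was reached by 7 of the 8 genes for thymus against spleen, 5 for mLN against thymus and 6 for iLN against thymus, by 2 for mLN against spleen, by 0 for iLN against spleen and for iLN against mLN, and by 6 over the 4 tissues. Of all 13600 genes, such a p was reached by 10.6% for thymus against spleen, 13.5% for mLN against thymus, 16.5% for iLN against thymus, 12.2% for mLN against spleen, 16.4% for iLN against spleen, 13.8% for iLN against mLN and 19.4% over the 4 tissues. DESeq2 called 2 of them for thymus against spleen (Ighm and Cd74, where it called 2.85% of all genes), 1 for mLN against spleen (Cd22, 1.82%), 2 for mLN against thymus (Cd74 and H2-Aa, 3.04%), 1 for iLN against thymus (Ighm, 3.47%) and 1 over the 4 tissues (Ighm, 7.37%). It called 0 for iLN against spleen (4.09% of all genes) and for iLN against mLN (2.03%).

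For thymus against spleen, Ighm had the lowest adjusted p of the 8 genes and the smallest change. Its log2 fold change there was -0.78 (SE 0.17) with an adjusted p of 0.014 by edgeR, for iLN against thymus it was 0.68 (SE 0.182, adjusted p = 0.0454), and for mLN against thymus 0.49 (SE 0.169, adjusted p = 0.161). Without spleen replicate 1 and mLN replicate 1 the first of these was -0.75 by edgeR (SE 0.177, adjusted p = 0.0323), and within batches First and Second it was -0.72 and -0.86.

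The class II genes had larger differences and larger errors. H2-Aa differed by -4.82 (log2, SE 1.27) for thymus against spleen (adjusted p = 0.0495 by edgeR) and by 5.19 (SE 1.23) for mLN against thymus (adjusted p = 0.0235 by edgeR). Cd74 differed by -3.82 (SE 1), 3.80 (SE 0.994) and 3.40 (SE 1.06) for thymus against spleen, mLN against thymus and iLN against thymus, with adjusted p of 0.0535, 0.0494 and 0.0973 by edgeR. H2-Ab1 and H2-Eb1 differed by 3.96 and 4.96 (log2) between mLN and thymus, with adjusted p of 0.261 and 0.139 by edgeR.

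Leaving out spleen replicate 1 and mLN replicate 1 shrank the spleen differences. The difference of thymus against spleen became -1.96 (SE 0.711, adjusted p = 0.253 by edgeR) for Cd74, -2.73 (SE 1.05, adjusted p = 0.303) for H2-Aa and -0.85 (SE 1.11) for Cd22. Cd74 for mLN against thymus became 2.50 (SE 0.741, adjusted p = 0.0933 by edgeR). By edgeR, H2-Aa for mLN against thymus was 4.65 (SE 1.02, adjusted p = 0.0177) without them, and Cd74 for iLN against thymus, where neither library belongs to the tissues compared, was 2.82 (SE 0.713, adjusted p = 0.032). Within batches First and Second, the difference of thymus against spleen was -2.77 and -4.45 for Cd74 and -0.76 and -7.80 for H2-Aa, and that of mLN against thymus was 3.67 and 3.86 for Cd74 and 3.28 and 7.46 for H2-Aa. For iLN against thymus Cd74 differed by 3.61 within First and by 2.17 within Second, where iLN has 1 library. The size for H2-Aa thus differed between the batches, and that difference was not tested.

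**Figure D5:**
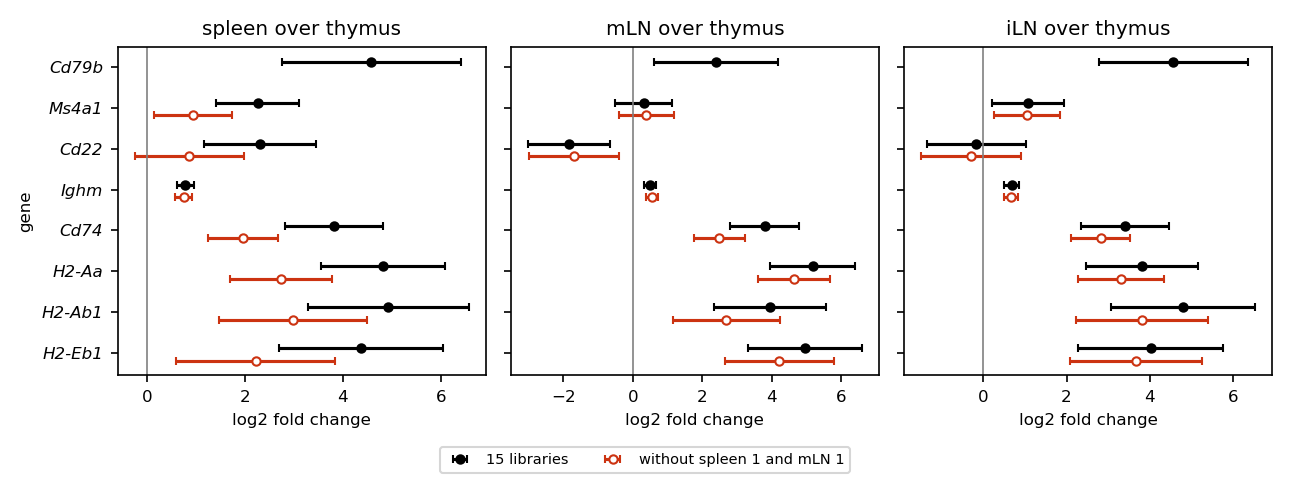
log2 fold change with SE of the 8 genes tested for spleen (left), mLN (centre) and iLN (right) over thymus, from all 15 libraries (filled) and from the 13 without spleen replicate 1 and mLN replicate 1 (open, where Cd79b did not pass the filter). The intervals of Ighm are narrow and hardly move, whereas those of the class II genes over thymus in spleen move toward 0 when the 2 libraries are left out.

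By mean, spleen came first for all 9 genes, and no neighbours in the order of tissues passed the test for the 8 genes tested. For 7 of the 9 this place rests on spleen replicate 1, since without it spleen came first for 2 (Ighm and Cd22). For Cd22 that first place (3.64 ± 3.37 CPM, SD, n = 3) rests on spleen replicate 2, at 7.36 CPM. Spleen replicates 3 and 4 were at 2.74 and 0.814 CPM, and the thymus mean was 2.11 CPM. The mean of the 3 other spleen libraries was 8.23 ± 1.19 CPM for Cd74, 4.35 ± 6 CPM for H2-Aa and 0.151 ± 0.133 CPM for Cd79a (SD, n = 3), each below the mean of mLN. That mLN mean still holds mLN replicate 1, at 96.5 CPM for Cd74 and 54.7 CPM for H2-Aa. The other mLN libraries were at 5.22, 19.6 and 10.8 CPM for Cd74, a range that overlaps spleen replicates 2 to 4 (6.92 to 9.22 CPM). For Ms4a1 and Cd79b iLN came second, with 3.24 ± 1.07 and 1.69 ± 1.48 CPM (SD, n = 3). CPM ranges without overlap were found for 2 genes between thymus and spleen (Ighm and Cd74, against 8.56% of all genes tested), 2 between mLN and thymus (Cd74 and H2-Aa, 8.05%) and 3 between iLN and thymus (Ighm, Cd74 and H2-Aa, 13.4%), with thymus lower in each, and for 0 in the 3 other pairs.

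Most further genes of the B lineage were also highest in spleen replicate 1. Of 30 further B lineage genes, 22 were highest in spleen replicate 1. Of the 18 that passed the filter, 13 were highest there, as were 8.96% of all genes that passed it. Of the 30, 13 had over 50% of their summed CPM there. Pax5, the factor that holds B cell identity, was at 36.8 CPM in spleen replicate 1 and at most 6.76 CPM elsewhere. Blnk, the adaptor of the B cell receptor, was at 15 CPM there and at most 0.551 CPM in the others. Ighd, the δ constant gene of mature naive B cells, was at 49.1 CPM there and at 8.53 CPM in the next library, mLN replicate 3, which also had the second highest Cd79a. Pax5, Blnk and Ighd were chosen after their values were seen.

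Of these 30 genes, 18 were tested and 2 were called, both in the same 3 comparisons. Pou2f2, which encodes the factor Oct-2, was at 4.29 ± 0.548 CPM in thymus, 16.5 ± 2.25 in spleen, 19.1 ± 3.31 in mLN (SD, n = 4 each) and 42.6 ± 8.99 in iLN (n = 3). By edgeR it fell by 1.92 (log2, SE 0.311, adjusted p = 0.00109) in thymus against spleen and rose by 3.29 (SE 0.332, adjusted p = 1.04e-05) in iLN against thymus. Cd72, an inhibitory receptor, was at 11.9 ± 5.17 CPM in thymus and 51.1 ± 13.7 CPM in spleen (SD, n = 4 each), and by edgeR fell by 2.13 (log2, SE 0.295, adjusted p = 0.000218) in thymus against spleen. In spleen replicate 1 Pou2f2 (16.6 CPM) lay within the range of the other spleen libraries and Cd72 (61.2 CPM) was close to spleen replicate 4 (58.4 CPM). Both were called for mLN against thymus too, and the median log2 fold change over the 18 genes tested was -2.09 for thymus against spleen (over all genes -0.01). Ralgps2 (26.5 to 79.7 CPM) and Igkc completed the 4 genes with the highest mean.

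Of 11 plasma cell and switched immunoglobulin genes, Sdc1, which encodes syndecan-1, rose in mLN and iLN against thymus and spleen. It was at 1.76 ± 2.2 CPM in thymus, 1.35 ± 0.604 in spleen, 11.9 ± 3.83 in mLN (n = 4 each) and 98.2 ± 41.2 in iLN (SD, n = 3), with a log2 difference of 5.97 (SE 0.579, adjusted p = 9.29e-06 by edgeR) for iLN against spleen. Igha, Jchain and Derl3 had the next highest means, Sdc1 was the 1 gene called of the 3 tested, and 2 of the 11 had no count in any library. Sdc1 is known from subsets of iNKT cells as well as from plasma cells.

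Of 13 further genes of the MHC class II pathway, 11 were tested and 1 was called. Ctss, the protease that trims the invariant chain, was at 57.3 ± 11.4 CPM in thymus, 27.7 ± 3.93 in spleen, 61.6 ± 11.1 in mLN (SD, n = 4 each) and 106 ± 20.2 in iLN (n = 3). By edgeR it rose by 1.04 (log2, SE 0.213, adjusted p = 0.00899) in thymus against spleen, by 1.15 (SE 0.211, adjusted p = 0.00686) in mLN against spleen and by 1.91 (SE 0.226, adjusted p = 4.36e-05) in iLN against spleen. Ctss was thus lowest in spleen. The means of Cd74 and H2-Aa were highest there, but this rests on spleen replicate 1. Without it the spleen means were 8.23 CPM for Cd74 and 4.35 CPM for H2-Aa, below those of mLN (33 and 24.5 CPM). These mLN means still hold mLN replicate 1, at 96.5 CPM for Cd74 and 54.7 CPM for H2-Aa. The other mLN libraries were at 5.22, 19.6 and 10.8 CPM for Cd74 and at 32.5, 8.11 and 2.50 CPM for H2-Aa. Rfx5 (27.9 to 58.6 CPM) and Rfxank (2.72 to 21.2 CPM), 2 parts of the factor that binds the X box, and H2-DMa (4.62 to 44.3 CPM), a chain of the peptide exchange molecule, had counts in all libraries. Ciita, the coactivator that switches the class II genes on, was at 0 to 7.80 CPM, highest in spleen replicate 1 and at 1.43 CPM in mLN replicate 1, and was picked after its values were seen.

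Some markers of other antigen presenting cells were also highest in spleen replicate 1, namely 5 of 14 for macrophages and monocytes and 3 of 13 for dendritic cells. Of those that passed the filter, 4 of 6 and 1 of 5 were highest there, as were 8.96% of all genes that passed it. In spleen replicate 1 the 14 macrophage and monocyte markers summed to 68.9 CPM, against 17.9 to 20.7 CPM in the other spleen libraries, 11.3 to 20.2 in mLN, 10.3 to 27.6 in iLN and 4.81 to 9.30 in thymus. Lyz2, which encodes lysozyme, was at 43.1 CPM in spleen replicate 1 and fell by 5.86 (log2, SE 1.22, adjusted p = 0.00997 by edgeR) in thymus against spleen, the 1 call of this list. It gave 437 of the 699 macrophage marker counts there, whereas C1qa, Cd14 and Fcgr1 were at 0 in that library. The 13 dendritic cell markers summed to 84.6 CPM in spleen replicate 1 and to 26.3 to 49.7 CPM in the 14 others. Xcr1, Zbtb46 and Irf8 held most of this sum and had counts in at least 14 libraries each, whereas Clec9a, Cd209a and Clec10a were at 0 in all 15.

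In mLN replicate 1 the summed markers of macrophages (11.3 CPM) and of dendritic cells (41.9 CPM) lay within the range of the other libraries. The dendritic cell sum is mostly of genes with counts in nearly all libraries, so that it cannot show whether such cells were present. Flt3, a receptor of dendritic cells and their precursors, was at 3.76 CPM in mLN replicate 1 and at 1.38 CPM in spleen replicate 1. It was at 0.123 CPM in thymus replicate 1 and at 0 in the 12 others. Itgax, the gene of CD11c, was at 0 in mLN replicate 1 and at 3.55 CPM in spleen replicate 1. Ccl22 was highest in mLN replicate 1 (1.94 CPM) and Fscn1 in mLN replicate 3 (3.33 CPM), and both had counts in LN libraries only. Flt3, Itgax, Ccl22 and Fscn1 were chosen after their values were seen. Irf8 was at 0 in mLN replicate 1 alone. Cd83, an activation marker of dendritic cells that other lymphocytes also use, rose by 6.73 (log2, SE 1.33, adjusted p = 0.00619 by edgeR) in iLN against thymus, from 0.0474 ± 0.0949 CPM (n = 4) to 7.97 ± 1.52 CPM (SD, n = 3). The part of these cells in the levels of the 9 genes was not tested.

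In the other lists neither spleen replicate 1 nor mLN replicate 1 had the highest sum, apart from the neutrophil markers. Those summed to 3.06 CPM in spleen replicate 1 and at most 0.74 CPM elsewhere, with S100a8, S100a9 and Mpo the 3 of 7 that had any count. Red cell markers were highest in spleen replicate 3 (118 CPM) and spleen replicate 2 (104 CPM), with Hbb-bs, the adult β-globin, called for mLN against spleen, iLN against spleen and mLN against thymus, and with Hba-a2 and Hbb-bt called for mLN against spleen. Thymic epithelial markers summed to between 16.8 and 34.3 CPM with no call in any pair, and Ccl25 held most of that sum. Of 8 LN stroma and vessel markers only Pecam1 (26.6 to 102 CPM) passed the filter, and 3 of the 8 had no count in any library. Of the thymocyte markers Rag1 was called in the 3 comparisons with thymus, and Dntt was at 1.52 to 13.2 CPM in thymus and at most 1.74 CPM elsewhere. Their sum was highest in thymus replicate 2 (73.5 CPM). In spleen replicate 1 it was 14.4 CPM, against 3.99 to 6.16 CPM in the other spleen libraries. Cd8a, a gene of the CD8 that the gate left out, was at 8.98 CPM there and at 0.498 to 3.05 CPM in the other spleen libraries.

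Of the 13 iNKT and T cell genes, Klrb1c, the gene of NK1.1, fell in mLN and iLN against both spleen and thymus, Slamf6 rose in mLN against spleen and thymus and fell in iLN against mLN, and Thy1 rose in iLN against thymus. Among the spleen libraries, replicate 1 was the lowest in Klrb1c (247 CPM), Thy1 (404 CPM), Cd3e (862 CPM), Trac (392 CPM) and Trbc2 (538 CPM) and the highest in Slamf6 (118 CPM).

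Outside all lists, the genes most like the mean of the B cell genes over the 15 libraries were Atg16l2 (Pearson's r = 0.805 of log2 CPM), Gbp4 (0.798), Fads6 (0.797), Bcl11a (0.789), Gm42927, Gxylt1, Gm17555, Gm45033, Gramd1b and Gm37651 (0.759), among 13523 genes compared. For the mean of the 4 class II genes they were Bcl11a (0.843), Lpin2 (0.833), Zfp27 (0.823), Bach2 (0.821), Prkca, Slc7a14, Rel, Heg1, Gm44578 and Kmt2c (0.798). Bcl11a, a factor of B cell and plasmacytoid dendritic cell development, was in both sets, at 10.9 CPM in spleen replicate 1, 1.94 CPM in mLN replicate 1 and at most 2.40 CPM in the others. Without spleen replicate 1, none of the first 10 genes for the B cell mean was shared with the first 10 over 15 libraries, and 3 were for the class II mean (Prkca, Slc7a14 and Zfp27). The B cell mean holds 4 of the 5 genes, since Cd79a did not pass the filter, and it includes Ighm. With Ighm left out of the mean, Bcl11a came first over the 15 libraries (0.799) and Atg16l2 had 0.783.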

How the data were processed

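RNA of sorted iNKT cells from 15 samples was sequenced as paired reads after amplification with a low-input kit. The authors trimmed reads with cutadapt and used RSEM with Bowtie2 against GRCm38.p6 to give, per gene and library, the deposited expected count, TPM (scaled by length) and FPKM (not used). The submitters' processing notes name cutadapt 1.7.1, RSEM 1.2.31 and Bowtie2 2.2.9. Whether counting used strand is not given in the sources used here, so reads of overlapping genes cannot be told apart. Amplified reads without molecular identifiers are not independent molecules, and intervals cover counting error only.

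Expected counts were rounded and tested with edgeR 4.0.16 in R 4.3.3 (quasi-likelihood, tissue and batch as terms, all tissues in 1 fit, TMM, filterByExpr by tissue), and a gene was called at an adjusted p (Benjamini-Hochberg) under 0.01 and a fold change over 1.5, or at the adjusted p alone over the 4 tissues. Adjustment was over 13600 genes. TMM factors ran from 0.755 to 1.18. On counts simulated for thymus against spleen, the test called 43.8% of 112 genes changed by 2 (log2), 11.4% of 88 changed by 1, and 1 of 13400 unchanged genes. Groups came from the labels. The alternatives were DESeq2 1.42.0, RLE scaling, other filters, no batch term, single batches, only the tissues compared, a replicate block, and each library left out. A fit without both spleen replicate 1 and mLN replicate 1 was added after seeing the data.

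Genes were named by symbol for 48349 identifiers. Promoters came from RefSeq. The members and lists were chosen with earlier results of these data known. The text names, from each further list, the genes called in any pair of tissues and up to 4 with the highest mean CPM, and the 10 genes outside all lists most like each mean, with others said to be picked later. The further lists were B lineage, plasma cell, MHC class II pathway, dendritic cell, macrophage, neutrophil, red cell, thymocyte, thymic epithelial, LN stroma, and iNKT and T cell genes.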

Additional observations from a re-analysis of the deposited data

Results flagged for a closer look

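In each tissue with 4 libraries, the gap between the highest or lowest library and its nearest neighbour was divided by the range and set against Dixon's 95% critical value for 4 samples. Of 115 groups tested, 28 passed, and spleen replicate 1 gave 17 of them. Dixon's value holds for independent groups of normally distributed values. Some groups here are mostly libraries without a count, some genes were picked after their values were seen, and sums share values with their members. The number that passed can therefore not be set against a chance rate, and the flags are a description.

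Among the 9 genes, the values standing apart in spleen replicate 1 were 20.0 CPM for Cd79a, 10.8 for Cd79b, 31.2 for Ms4a1, 143 for Cd74, 98.6 for H2-Aa, 43.6 for H2-Ab1 and 17.1 for H2-Eb1. Its sums stood apart too, at 92.6 CPM for the 4 B cell genes without Ighm and 303 CPM for the 4 class II genes. In mLN replicate 1 it was Cd74, at 96.5 CPM. Ighm was low in thymus replicate 2 (76.4 CPM), the shallowest library, and Cd79b stood out in thymus replicate 3 (0.275 CPM) with a single count.

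Of the further lists, spleen replicate 1 stood apart in the sums of B lineage genes (686 CPM), macrophage markers (68.9 CPM), neutrophil markers (3.06 CPM) and Iglv segments (1.88 CPM). Of single genes it did so in Ighd (49.1 CPM), Pax5 (36.8 CPM), Blnk (15 CPM) and Flt3 (1.38 CPM).

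In other libraries the values were 3.76 CPM for Flt3 in mLN replicate 1, 8.53 CPM for Ighd and 0.832 CPM for Iglv segments in mLN replicate 3, and 34.3 CPM for the stroma and vessel sum and 0.451 CPM for Sdc1 in spleen replicate 2, both of them low values. Thymus had 0.123 CPM for Flt3 in replicate 1, 0.551 CPM for Blnk in replicate 3 and 0.19 CPM for Cd83 in replicate 4, each against 0 in the other thymus libraries. These last rest on 1 or 2 counts.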

How the results depend on the processing

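As reported, edgeR called 0 of the 8 genes tested in every comparison. DESeq2 called 2 for thymus against spleen, 1 for mLN against spleen, 2 for mLN against thymus, 1 for iLN against thymus and 1 over the 4 tissues. With no filter on low counts the numbers were 4, 1, 4, 3 and 4 in the same order. That setting also called more of all genes, 393, 273, 435, 480 and 1134 in this order, against 179, 89, 217, 204 and 459 with the filter. A minimum of 10 counts in every sample gave 1 for thymus against spleen (Ighm), and using only the 2 tissues compared gave 1 for mLN against thymus (H2-Aa). Leaving out 1 library gave 0 to 2 for mLN against thymus (Cd74 and H2-Aa without spleen replicate 1, H2-Aa without thymus replicate 4, Cd74 without mLN replicate 2) and 0 in the other comparisons. With a replicate block, Cd74 was the 1 gene called for thymus against spleen, mLN against thymus, iLN against thymus and over the 4 tissues. For these calls with the minimum of 10 counts, the 2 tissues compared and the replicate block, no share of all genes is given here. They are therefore not set against a background. Whether replicate numbers pair the samples was not settled. Within tissue and batch, deviations of samples with the same number had a mean r of 0.0231 (0.00312 to 0.0633 over 18 pairs). A tissue has at most 2 libraries per batch, so that the value for the other number is the same with its sign reversed and is no comparison. From tissue means, the mean r was 0.122 for the same number and 0.107 for another number of the same batch. RLE scaling, no batch term, single batches and the fit without both spleen replicate 1 and mLN replicate 1 gave 0. The cause of these changes was not tested. Of 1117 fold changes of the 8 genes tested under the alternatives, 1015 kept their sign and side of the threshold. Of the rest, 27 were called only in the alternative, and 75 that were never called had the other sign. Cd79a, which did not pass the filter, was not among them.

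Numbers of all genes called also moved. In the order thymus against spleen, mLN against spleen, iLN against spleen, mLN against thymus, iLN against thymus, iLN against mLN and 4 tissues, edgeR called 179, 89, 211, 217, 204, 64 and 459, DESeq2 387, 248, 556, 414, 472, 276 and 1002, and edgeR with no filter 393, 273, 544, 435, 480, 279 and 1134. Batch First alone gave 45, 0, 81, 55, 114, 23 and 180, and batch Second alone 27, 0, 4, 31, 7, 3 and 41. With no batch term 29 were called for mLN against spleen, 129 for iLN against spleen, 123 for iLN against thymus and 40 for iLN against mLN. With only the 2 tissues compared there were 313 for thymus against spleen, 17 for mLN against spleen, 86 for iLN against spleen and 20 for iLN against mLN. Without both spleen replicate 1 and mLN replicate 1, 36 were called for mLN against spleen. Leaving out 1 library gave 114 to 222, 24 to 99, 108 to 267, 125 to 235, 104 to 236, 44 to 66 and 327 to 493. Depth limits the low values: Cd79a had 4 counts in thymus and 1 in iLN, and thymus replicate 2 allows up to 2.21 CPM at 0 counts.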

Other observations

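Some further genes of B cells had patterns of their own, and all genes in this paragraph and the next were chosen after their values were seen. Blk, a kinase of the B cell receptor pathway that some T cells also use, was at 25.1, 27.6 and 49.4 CPM in the 3 iLN libraries and at most 10 CPM in the 12 others. By edgeR it differed by 4.15 (log2, SE 1.05) between iLN and thymus with an adjusted p of 0.0356, which misses the threshold used for calls. Bank1, an adaptor of B cell signalling, was at 23.4 CPM in spleen replicate 1 and at 20.7 CPM in mLN replicate 2, a library with 2 counts each of Cd79a and Cd79b.

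The λ light chain genes were highest in spleen replicate 1. Iglc3, a λ constant gene, was at 12.5 CPM there, 95% of its sum over the 15 libraries. Iglc1 and Iglc2, also λ constant genes, had 81.8% and 77.9% of their sums there, and Iglv segments 59.8%. The κ gene Igkc had 28.8% of its sum there. Of the class II pathway, H2-DMb2 (25.3 CPM) and H2-Ob (19.0 CPM), whose products guide peptide loading, were highest in spleen replicate 1. Of the 13 further genes of this pathway, 4 were highest there, and of the 11 that passed the filter 3 were. The 13 genes summed to 156 CPM in spleen replicate 1, against a mean of 174 CPM in the 14 others, so that the list as a whole was not high there. Cxcr5, a receptor for the B cell follicle, was at 18.7 CPM in iLN replicate 3 and at most 5.23 CPM elsewhere.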
